A study of Mus musculus with 15 samples.

Results

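Odorant receptors were followed in mouse olfactory epithelium through 5 genes, Olfr1507, Olfr1264, Olfr1509, Olfr92 and Olfr71. They were chosen by gene symbol, with earlier results of these data known. Every probe set annotated to 1 of these symbols alone was taken. Each gene had 1 such probe set, so 5 probe sets stand for 5 of the 8251 genes that have a probe set of their own on the array. The array carries 16 other odorant receptor genes with a probe set of their own. All tissue came from male C57Bl/6 mice 6 weeks old. RNA of 3 mice, 5 µg each, was pooled for every Affymetrix MG_U74Av2 array, and 15 arrays fall into 5 groups of 3. The groups were untreated mice, sham-operated mice 5 days after surgery, and mice 1, 5 or 7 days after bilateral removal of the olfactory bulbs (bulbectomy, OBX). Each array shows the average of its 3 mice, so the spread between single mice was not measured, and days 1 and 7 have no sham group of their own.

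Odorant receptors are G protein-coupled receptors in the cilia of olfactory sensory neurons. Each mature neuron is thought to express a single receptor gene, from a single allele, and neurons with the same receptor lie scattered within a zone of the epithelium and send their axons to the same glomeruli of the olfactory bulb. Removal of the bulb cuts those axons and takes away their target. The mature neurons die, and basal cells divide and give rise to new ones. A receptor's level in whole tissue is the sum over the neurons that chose it, and fewer such neurons and less RNA per neuron cannot be told apart in these arrays.

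The members come from 4 chromosomes. In the RefSeq gene table (GRCm38.p6) all 5 symbols matched. Olfr1507 (MOR28) and Olfr1509 (MOR83) lie in the same cluster on chromosome 14, with Olfr1508 between them. Olfr1264 (MOR236-1) lies on chromosome 2 between Olfr1263 and Olfr1265, with 12 other receptor genes within 100 kb. Olfr92 (MOR256-29) lies on chromosome 17 between Olfr91 and Olfr93. Olfr71 (mOR17) lies on chromosome 4 next to Olfr70. Receptor coding regions are usually a single exon, and the starts of 4 of them are shown because they identify the members. They are RefSeq sequence of GRCm38.p6, 5′ to 3′ on the coding strand, with the first ATG of the gene model in capitals.
Olfr1264, chr2:90022015-90022064, minus strand: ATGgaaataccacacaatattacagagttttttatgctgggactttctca
Olfr1509, chr14:52450415-52450442, plus strand: ATGggagctctaaatcaaacaagagtga
Olfr92, chr17:37111931-37111980, minus strand: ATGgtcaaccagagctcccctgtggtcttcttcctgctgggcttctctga
Olfr71, chr4:43706517-43706566, minus strand: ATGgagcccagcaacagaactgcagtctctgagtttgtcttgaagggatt

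The deposited signals are intensities on a linear scale that the authors had brought to the same trimmed mean on every array (1500.6 to 1500.7). The share of probe sets with a present call ran from 49.1% to 58.8%, and the median signal from 620.7 to 715.5. The number of arrays limits the precision. Omp, which encodes the olfactory marker protein of mature neurons, was present on all arrays, with signals of 37996 to 41307 in the untreated group. A defining marker of the labelled tissue was therefore measured in it. The untreated and sham arrays and the first 2 arrays of OBX day 1 were scanned on 1 day, and the remaining array of OBX day 1 with all arrays of OBX days 5 and 7 on another. Scan day can therefore be separated from time after surgery only through OBX day 1. Levels are compared between groups for each probe set, and never between probe sets.

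All 5 receptors fell 5 days after bulbectomy against sham surgery. The 4 with present calls on that day were lower by between 1.4-fold (Olfr71) and 4.65-fold (Olfr1507), and Olfr92, with no present call, by at least 3.19-fold. On day 7 Olfr92 again had no present call, while Olfr1509 stood at 84.8% of its untreated mean. No effect of sham surgery on the receptors was detected. All 5 had overlapping signals in the untreated and sham groups, and their log2 changes lay between −0.08 and 0.11 (adjusted p = 1 for each in limma). Across all 7508 tested probe sets 0 were called in that comparison, or 0%, while 112 had an unadjusted p under 0.05. After bulbectomy the signals of all 5 receptors lay below every array of the matching control on days 1, 5 and 7. The same held for 12% of all tested probe sets on day 1, 16% on day 5 and 18.1% on day 7. The group means of the receptors then differed in their course between days 1 and 7, and these differences between receptors were not tested.

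**Figure D1:**
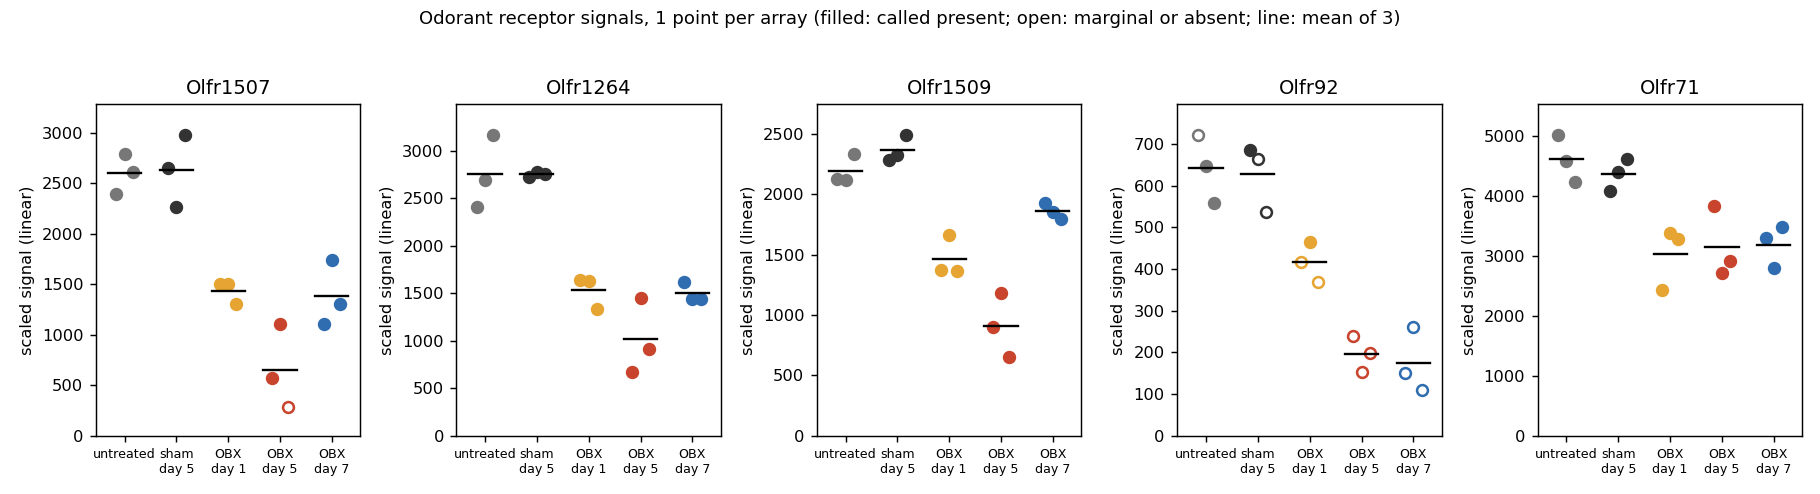
Scaled signal (linear axis from 0, its own range for each receptor) of Olfr1507, Olfr1264, Olfr1509, Olfr92 and Olfr71 on each of the 15 arrays, by group. Points are arrays, filled where called present and open where marginal or absent, and lines are means of 3 arrays. In every panel the OBX points lie below all untreated and sham points. Olfr1509 lies at 1794 to 1926 on day 7, and Olfr92 at or below 260.4 on days 5 and 7.

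Olfr1507, also called MOR28, is a widely studied receptor of the ventral zone and was called present on 14 of 15 arrays. Its signals were 2391, 2791 and 2618 in untreated mice and 2649, 2267 and 2984 after sham surgery. They were 1502, 1505 and 1306 on OBX day 1. Every OBX day 1 array lay below all 6 control arrays, with little spread among the 3. On OBX day 5 the signals were 572, 1106 and 281, the last called absent. That group was the most scattered of all for this receptor, with a mean of 653 ± 419 (SD, n = 3), or 25.1% of the untreated mean. On OBX day 7 they were 1106, 1740.5 and 1304, again present on all 3 arrays and at 53.2% of the untreated mean. The log2 change was −2.22 ± 0.34 (SE) on day 5 against sham (adjusted p = 0.00042), a 4.65-fold fall. The changes against untreated of −0.86 ± 0.34 on day 1 and −0.93 ± 0.34 on day 7 did not pass (adjusted p = 0.23 and 0.082). All these SEs share 1 spread over the 5 groups. The SD of log2 signal was 0.99 on OBX day 5, against 0.11 untreated, 0.12 on day 1 and 0.33 on day 7. With only the arrays of the groups compared in limma, the SE was 0.11 on day 1 and 0.16 on day 7 (adjusted p = 0.0023 and 0.0043).

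Olfr1509, also called MOR83, is the other receptor of the MOR28 cluster tested here and was present on all arrays. Its signals were 2128, 2115 and 2329 untreated and 2283, 2325 and 2493 after sham surgery. On OBX day 1 they were 1368, 1660.3 and 1361. On OBX day 5 they were 903, 1178 and 649.8. The day 5 arrays were the lowest of the series and did not overlap with those of any other group. On OBX day 7 they were 1926, 1850.5 and 1794, a mean of 1857 ± 66.5 (SD, n = 3) and 84.8% of the untreated mean. Olfr1509 fell by 1.42 ± 0.17 on the log2 scale on day 5 (adjusted p = 5.9e-05). The change of −0.59 ± 0.17 on day 1 did not pass (adjusted p = 0.087), nor did that of −0.24 ± 0.17 on day 7 (adjusted p = 0.37), where the 3 arrays still lay below the untreated ones.

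Olfr1264 followed a course between these. Its signals were 2408, 2697 and 3172 untreated and 2727, 2782 and 2761 after sham surgery. They were 1642, 1627 and 1336 on OBX day 1, 675, 1451 and 917 on day 5, and 1617, 1440.0 and 1439 on day 7. The second day 5 array lay within the range of days 1 and 7, and the other 2 arrays of day 5 lay below. On the log2 scale it fell on all 3 days, by 0.84 ± 0.21 on day 1 (adjusted p = 0.045), by 1.51 ± 0.21 on day 5 (adjusted p = 0.00018) and by 0.87 ± 0.21 on day 7 (adjusted p = 0.012).

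Olfr92 lay nearest to the detection limit and was called present on 4 of 15 arrays. Its signals were 723 (marginal), 646 and 559 untreated, and 685, 664 and 536 after sham surgery, of which only the first was called present. On OBX day 1 they were 417, 464 and 369, with the second called present. On OBX day 5 they were 239, 153 and 199, and on day 7 they were 151, 260.4 and 110.1, all called absent. It was the only member without a present call on either day. With no present call in the lower group the change is a bound: Olfr92 was at least 3.19-fold lower on day 5 than after sham surgery (means 197 and 628, adjusted p = 0.00057) and at least 3.69-fold lower on day 7 than in untreated mice (means 174 and 643, adjusted p = 0.00033). The value of −0.62 ± 0.27 on day 1 did not pass (adjusted p = 0.28). Every log2 value given for Olfr92 on days 5 and 7 is likewise an upper limit, since its level may lie lower. These limits take the mean of the brighter group as measured. Only 1 sham array and 1 OBX day 1 array were called present. Those means may therefore lie lower too, and the bounds against them are not strict.

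Olfr71, also called mOR17, was present on all arrays and changed least after day 1. Its signals were 5025, 4582 and 4228 untreated and 4083, 4405 and 4610.2 after sham surgery. They were 2436, 3375 and 3279.9 on OBX day 1, 3829, 2714 and 2923 on day 5, and 3292, 2791 and 3486 on day 7. The 3 OBX groups overlapped and had means of 65.7%, 68.4% and 69.2% of the untreated mean. It fell by 0.62 ± 0.15 on the log2 scale on day 1 (adjusted p = 0.047), by 0.48 ± 0.15 on day 5 (adjusted p = 0.036) and by 0.53 ± 0.15 on day 7 (adjusted p = 0.032).

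Counted over the members, 2 of 5 fell on day 1, 5 of 5 on day 5 and 3 of 5 on day 7. The members were chosen with earlier results of these data known, so these counts describe them only. Of all tested probe sets, 0.666% fell on day 1, 9.19% on day 5 and 6.02% on day 7. The median log2 change of the 5 receptors was −0.62, −1.51 and −0.87 on those days, and that of all tested probe sets was 0, −0.01 and 0.03. The counts on day 1 rested on narrow margins. Leaving out 1 of the untreated or OBX day 1 arrays left 0 receptors past the threshold in each case, with log2 changes of −0.94 to −0.74 for Olfr1264. Without any single sham or OBX day 5 array, Olfr1507, Olfr1509, Olfr1264 and Olfr92 passed on day 5 in all 6 fits. Olfr71 passed in only 1 of the 6, with changes of −0.63 to −0.38 and an adjusted p of up to 0.11. On day 7 the count was 1 without the third untreated array, when Olfr1264 (−0.77, adjusted p = 0.058) and Olfr71 (−0.60, adjusted p = 0.051) missed the threshold. Olfr71 passed on day 7 in 1 of the 6 fits that left out an untreated or OBX day 7 array.

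With scan day as a block none of the 5 passed on any day. The log2 changes on day 5 were then −2.02 for Olfr1507, −1.27 for Olfr1509, −1.22 for Olfr1264, −1.44 for Olfr92 and −0.68 for Olfr71 (adjusted p = 0.08 to 0.34), all in the same direction. In that fit only 65 of 7508 probe sets were called on day 5, against 1578 without the block. Within the first scan day, 2 arrays of OBX day 1 were set against the 3 untreated. The log2 changes were −0.79 for Olfr1507, −0.75 for Olfr1264, −0.68 for Olfr71 and −0.54 for Olfr1509 (adjusted p = 0.012 to 0.037). That of Olfr92 was −0.54 and did not pass (adjusted p = 0.15). The share of all tested probe sets called in that fit is not given, so these calls have no background beside them. Of the OBX day 1 arrays, the one scanned on the second day had the lowest signal of the 3 for Olfr1507, Olfr1264, Olfr1509 and Olfr92, and the middle one for Olfr71. What scan day contributes to the day 5 and day 7 changes was not tested beyond this.

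**Figure D2:**
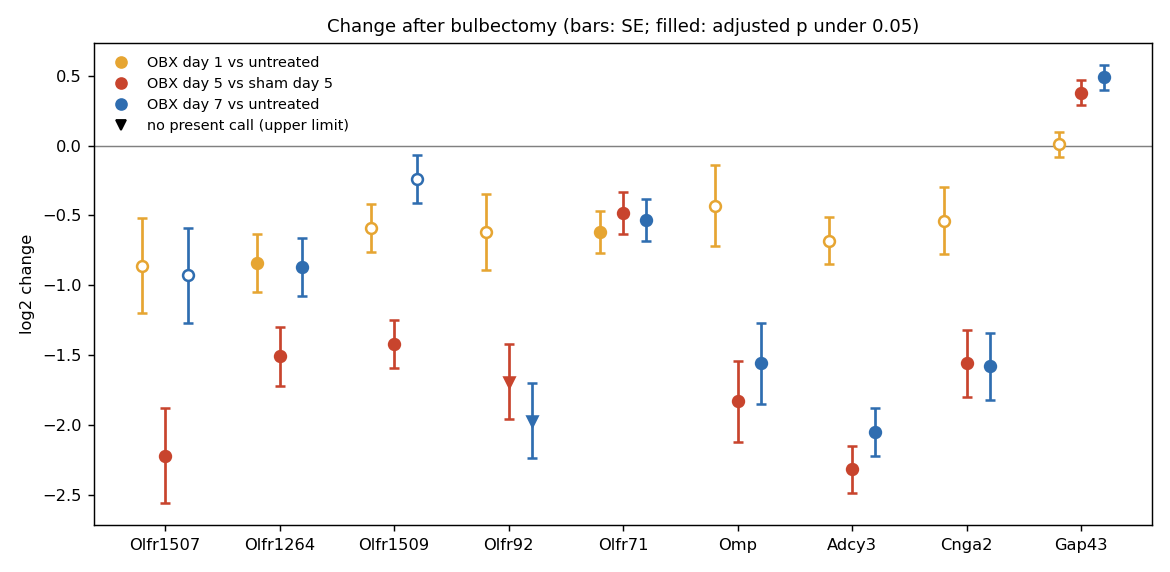
Log2 change (vertical axis) of the 5 receptors and of Omp, Adcy3, Cnga2 and Gap43 on OBX day 1 and day 7 against untreated and on day 5 against sham. Bars are SE, filled points passed an adjusted p of 0.05 in limma, and triangles are upper limits for groups with no present call. On day 5 Olfr1507 lies at −2.22 and Adcy3 at −2.32, and Olfr71 lies between −0.62 and −0.48 on all 3 days.

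Between days the values of the receptors moved by different amounts, and no fit tested the receptors against each other. From OBX day 1 to day 5, on the log2 scale, Olfr1507 fell further by 1.35 ± 0.34 and Olfr1509 by 0.72 ± 0.17 (adjusted p = 0.023 and 0.015), and Olfr92 was at least 2.12-fold lower (adjusted p = 0.021). The arrays of these 3 receptors did not overlap between the 2 days. Olfr1264 changed by −0.66 ± 0.21 (adjusted p = 0.062) and Olfr71 by 0.06 ± 0.15 (adjusted p = 0.85). Thus 3 of 5 members fell, beside 3.86% of all tested probe sets. The count was 1 without the first OBX day 1 array and 0 without the second. None of the 3 passed within the second scan day, where 1 array of OBX day 1 remains (log2 changes of −1.22 for Olfr1507, −0.93 for Olfr92 and −0.62 for Olfr1509). The larger change on day 5 than on day 1, each against its own control, did not pass for any receptor. It came closest for Olfr1509, at −0.83 ± 0.24 (adjusted p = 0.1). Without the second OBX day 5 array it passed for Olfr1507 (−1.85), Olfr1509 (−1.04) and Olfr1264 (−0.97). That array was the brightest of its group for these 3 receptors, so leaving it out widens the fall by construction. Each passed in that fit alone of the 12 that left out an array.

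From day 5 to day 7 the values of Olfr1507 and Olfr1509 were higher by 1.27 ± 0.34 and 1.07 ± 0.17 on the log2 scale and that of Olfr1264 by 0.63 ± 0.21. None passed after adjustment (adjusted p = 0.5, 0.1 and 0.56), in a comparison where limma called 0 of 7508 probe sets, or 0%, and 601 had an unadjusted p under 0.05. All arrays of these 2 groups were scanned on the same day. Olfr1509 had all 3 day 7 arrays above all 3 day 5 arrays, and the other 4 receptors overlapped. Olfr92 was called absent throughout both groups, and Olfr71 changed by 0.03 ± 0.15 (adjusted p = 0.95). Without the second OBX day 5 array, the brightest of that group for Olfr1507, Olfr1264 and Olfr1509, the 3 differences passed (1.76 for Olfr1507, 1.28 for Olfr1509 and 0.93 for Olfr1264, adjusted p = 0.011, 0.0018 and 0.029). Leaving out the brightest array of the lower group raises the difference by construction. Each passed in that fit alone of the 6 that left out an array, with adjusted p up to 0.74, 0.74 and 0.98 in the others. The 3 OBX day 7 arrays had a hybridize date of their own in the station settings, taken here as a fluidics run. All OBX day 5 arrays lay in another run, so run and group cannot be told apart in this comparison. A fit with run as a random block, which cannot remove such a difference, gave adjusted p = 0.0032, 0.00012 and 0.0071. Day 7 differed from day 1 only for Olfr92, at least 2.4-fold lower (adjusted p = 0.0088), 1 of 5 members beside 2.25% of all tested probe sets. That call was also lost within the second scan day (−1.18, adjusted p = 0.96).

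To describe how far the receptors moved apart, each of the other 4 was expressed relative to Olfr71 on the same array. Olfr71 was taken as the reference after the courses were known, as the member with the smallest change on day 5. That the other 4 lay below it on day 5 follows largely from this choice, so the differences are given with no test. On day 1 they lay between −0.24 and 0.03 on the log2 scale. On day 5 Olfr1507 was at −1.74 ± 0.38 (SE), Olfr1264 at −1.03 ± 0.30 and Olfr1509 at −0.94 ± 0.23. On day 7 these 3 were at −0.40 ± 0.38, −0.34 ± 0.30 and 0.30 ± 0.23. Olfr92, with no present call on either day, was at −1.21 or lower on day 5 and at −1.44 or lower on day 7. With scan day as a block the day 5 differences were −1.34 for Olfr1507, −0.55 for Olfr1264 and −0.59 for Olfr1509. Without the second OBX day 5 array they were −2.32, −1.43 and −1.24. Without the first OBX day 5 array that of Olfr1264 was −0.63. On day 7 the scan day block gave 0.0 for Olfr1507, 0.15 for Olfr1264 and 0.64 for Olfr1509. For Olfr92 that block gave −0.76 or lower on day 5 and −0.99 or lower on day 7.

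**Figure D3:**
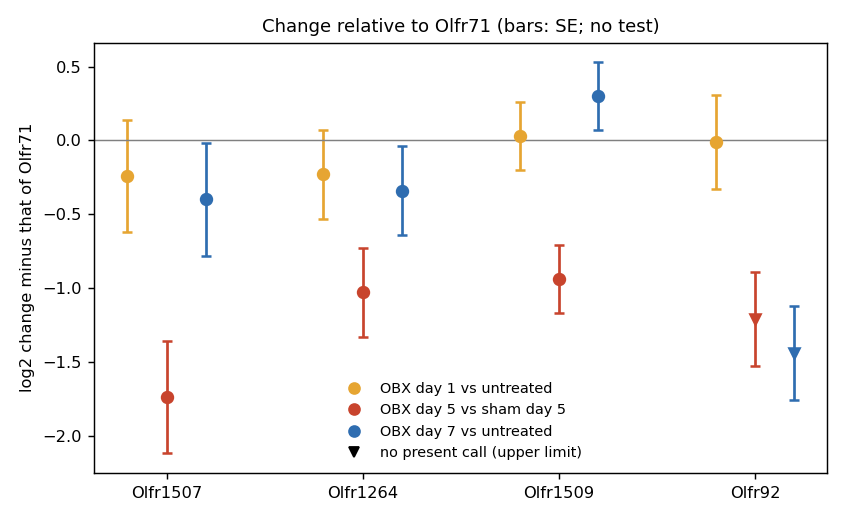
Log2 change minus that of Olfr71 (vertical axis) for Olfr1507, Olfr1264, Olfr1509 and Olfr92 on OBX days 1, 5 and 7 against their controls. Bars are SE, triangles are upper limits for groups with no present call, and no test is shown. On day 1 all 4 lie between −0.24 and 0.03, and on day 5 the 3 receptors with present calls lie between −1.74 and −0.94.

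The receptors were next set beside genes of mature olfactory neurons. Of 12 listed genes of that kind 3 were tested: Omp, Adcy3, the adenylyl cyclase of odour transduction, and Cnga2, a subunit of the cyclic nucleotide-gated channel. Omp signals were 31600.3, 28359 and 27411 on OBX day 1, 19232.5, 12480.0 and 5420.4 on day 5, and 13208, 13146 and 13522.5 on day 7. The third OBX day 5 array was lowest for Omp, Adcy3 and Cnga2 and also for Olfr1507 and Olfr1509. The first OBX day 5 array was highest for Omp, Adcy3 and Cnga2 and for Olfr92 and Olfr71, whereas Olfr1507, Olfr1264 and Olfr1509 were highest on the second. All 3 reference genes fell on days 5 and 7: Omp by 1.83 ± 0.29 and 1.56 ± 0.29, Adcy3 by 2.32 ± 0.17 and 2.05 ± 0.17, and Cnga2 by 1.56 ± 0.24 and 1.58 ± 0.24 on the log2 scale (adjusted p = 3.3e-06 to 0.0029). From day 5 to day 7 they changed by 0.28 ± 0.29, 0.29 ± 0.17 and 0.15 ± 0.24, and none passed.

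Relative to the mean of these 3 genes on each array, no receptor differed on day 1. On day 5 Olfr71 stood higher by 1.42 ± 0.28 on the log2 scale (adjusted p = 8.1e-05), while Olfr1509 (0.49 ± 0.27), Olfr1264 (0.39 ± 0.35), Olfr92 (at most 0.22 ± 0.39) and Olfr1507 (−0.31 ± 0.32) did not pass. On day 7 Olfr1509 was higher by 1.49 ± 0.27, Olfr71 by 1.20 ± 0.28, Olfr1264 by 0.86 ± 0.35 and Olfr1507 by 0.80 ± 0.32 (adjusted p = 4.6e-05, 0.00043, 0.023 and 0.022). Olfr92 was at −0.24 ± 0.39 or lower (adjusted p = 0.55). These counts of 1 and 4 receptors stand against a background in which 97.5% of all tested probe sets rose relative to the same 3 genes on day 5 and 97.6% on day 7, and nearly every gene rose in this measure. The calls of Olfr1507 and Olfr1264 on day 7 were lost with Omp alone as the reference (0.63 and 0.69, adjusted p = 0.11 for both). They were lost too without Adcy3 among the reference genes (0.64 and 0.70, adjusted p = 0.076 and 0.077). Neither passed with scan day as a block (1.03 and 1.18, adjusted p = 0.11 and 0.095). That block also ended the day 7 call of Olfr71 (1.03 ± 0.53, adjusted p = 0.075). The call of Olfr1507 was also lost without the second OBX day 7 array (0.60, adjusted p = 0.12), and that of Olfr1264 without the first or second untreated or the first OBX day 7 array (adjusted p = 0.057, 0.067 and 0.058). Without the second OBX day 5 array Olfr1507 was lower than the mature neuron genes on day 5 (−0.75, adjusted p = 0.021). Without the first, Olfr1264 and Olfr1509 were higher (0.97 and 0.79, adjusted p = 1e-04 and 0.0012). Olfr1509 also passed on day 5 with Omp or Cnga2 left out of the reference genes (0.52 and 0.66, adjusted p = 0.048 and 0.023).

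The 16 other receptor genes were mostly dim: 9 were called present on no array, and 6 passed the detection filter of 3 present calls. Olfr93, a neighbour of Olfr92 on chromosome 17, fell by 0.94 ± 0.18 on the log2 scale on day 5 and by 0.82 ± 0.18 on day 7 (adjusted p = 0.0025 and 0.0098). Olfr49, with no present call on day 5, was at least 1.73-fold lower then (adjusted p = 0.023) and fell by 0.90 ± 0.23 on day 7 (adjusted p = 0.019). Olfr15 fell by 0.98 ± 0.25 on day 5 (adjusted p = 0.011) and stood at −0.22 ± 0.25 on day 7 (adjusted p = 0.6), with a mean signal of 58.6% and then 86.1% of the untreated mean. Olfr140, with no present call on day 5, was at least 1.35-fold lower then, which did not pass (adjusted p = 0.072), and fell by 0.66 ± 0.16 on day 7 (adjusted p = 0.016). Olfr29-ps1, a pseudogene near Olfr71 whose probe set is marked as shared within a sequence family, was at −0.50 ± 0.18 on day 5 (adjusted p = 0.055) and fell by 0.59 ± 0.18 on day 7 (adjusted p = 0.038). Olfr138 did not pass on any day (−0.83 ± 0.58 on day 5). Thus 0, 3 and 4 of these 6 fell on days 1, 5 and 7, beside 0.666%, 9.19% and 6.02% of all tested probe sets. Their median log2 changes were −0.50, −0.81 and −0.62. How far these calls depend on single arrays or on scan day was not tested.

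Olfr70 was present on 2 arrays and was not tested, with mean signals of 623 untreated, 553 after sham surgery, 528 on OBX day 1, 493 on day 5 and 411 on day 7. Olfr2, Olfr94, Olfr16, Olfr1508, Olfr155, Olfr157, Olfr159, Olfr90 and Olfr91 had no present call and have no measured level. Olfr1508, which lies between the 2 members of the chromosome 14 cluster, is among these. Of 13 vomeronasal receptor probe sets with 1 gene, 1 was tested, for Vmn2r30. A further pair of probe sets annotated to several odorant receptors, 1 of them to Olfr1507 and Olfr1508 together, was not used, and how far receptors of similar sequence share the members' probes was not tested.

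**Figure D4:**
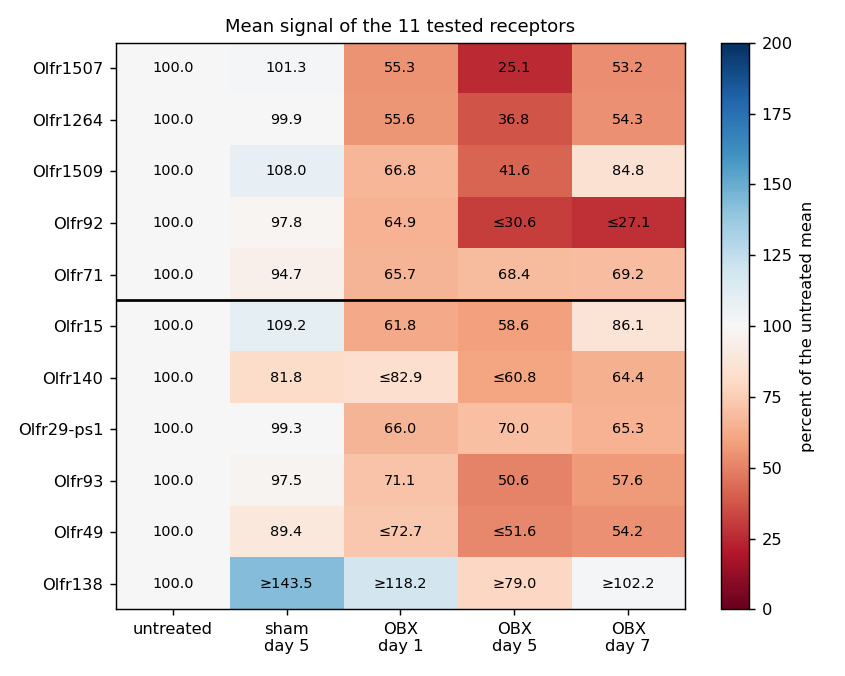
Mean signal of the 11 tested odorant receptors (rows, the 5 members above the line) in the 5 groups (columns), as a percent of the same probe set's untreated mean. Colour runs from 0 (red) to 200 (blue), ≤ marks a group with no present call, and ≥ marks Olfr138, which had none in the untreated group. On OBX day 5 the members with present calls range from 25.1 for Olfr1507 to 68.4 for Olfr71, and on day 7 from 53.2 for Olfr1507 to 84.8 for Olfr1509, while Olfr92 is at most 30.6 and 27.1.

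The course of each receptor over the 5 groups was compared with those of all other genes tested, by the root mean square difference of the group means of log2 signal after centring. Among the members, Olfr1264 and Olfr1509 were nearest (0.217), followed by Olfr1507 and Olfr1264 (0.274), while Olfr92 and Olfr1509 were farthest apart (0.65, with the day 5 and day 7 means of Olfr92 taken from arrays without a present call). The 5 genes nearest to Olfr92 were Hcn2, Gldc, Ptp4a3, Synj2 and Stom (0.082 to 0.168), all low on both day 5 and day 7. Nearest to Olfr71 were 6430706D22Rik, Yipf4, Kif3b, Olfr29-ps1 and Ctnna2 (0.044 to 0.056), which like Olfr71 were about equally low on days 1, 5 and 7. Nearest to Olfr1264 were Rgs7, Celf4, Abcd2, Epha7 and Pfkfb2 (0.089 to 0.138), and nearest to Olfr1509 were Abcd2, Taf1b, Rgs7, Celf4 and Kifap3 (0.1 to 0.185). Rgs7, Celf4 and Abcd2 were on both lists. Nearest to Olfr1507 were Ifit2, Ppargc1a, Btk, Scn9a and Syt4 (0.113 to 0.222). These are likenesses over 5 group means that share their arrays, and they carry no test.

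Genes that act with the receptors changed in part. Of all tested probe sets 1.8% rose on day 1, 11.8% on day 5 and 7.01% on day 7, beside the shares that fell given above. Of 8 tested genes of odour transduction, the steps by which a bound receptor opens ion channels, 0, 5 and 4 fell and 0 rose on days 1, 5 and 7, with a median of −0.57 on day 5. Besides Omp, Adcy3 and Cnga2 these were Ckb, a creatine kinase (−0.81 ± 0.18 on day 5, adjusted p = 0.0051), and on day 5 only Car2, a carbonic anhydrase (−0.33 ± 0.10, adjusted p = 0.036). Of 14 tested genes of receptor folding, transport and feedback, 2 rose on day 1, 3 fell and 4 rose on day 5 and 5 fell and 3 rose on day 7 (medians of 0.19, 0 and 0.05). Reep1, which promotes the surface transport of odorant receptors, fell by 1.31 ± 0.09 on day 5 and by 1.04 ± 0.09 on day 7 (adjusted p = 1.7e-06 and 1.2e-05). Reep5 of the same family rose by 0.80 ± 0.11 and 0.68 ± 0.11. Xbp1, a transcription factor of the unfolded protein response, rose by 0.85 ± 0.12 on day 1, 0.59 ± 0.12 on day 5 and 0.41 ± 0.12 on day 7. Pdia4, a protein disulfide isomerase, rose by 0.57 ± 0.14 on day 1, 0.64 ± 0.14 on day 5 and 0.88 ± 0.14 on day 7. Atf5, the transcription factor of the feedback that stabilises receptor choice, fell by 0.57 ± 0.15 on day 5 and by 0.72 ± 0.15 on day 7 (adjusted p = 0.013 and 0.0056).

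Of 21 tested genes of receptor gene choice and silencing, 1 fell and 1 rose on day 1, 2 fell and 4 rose on day 5, and 2 fell and 1 rose on day 7 (medians of 0.02, 0.12 and 0.10). On days 5 and 7 these counts are not far from the shares of all tested probe sets. Ebf3 and Ebf2 belong to the family that binds receptor promoters. Ebf3 fell by 0.76 ± 0.12 on day 1, 0.76 ± 0.12 on day 5 and 0.68 ± 0.12 on day 7. Ebf2 fell by 0.59 ± 0.11 on day 5 and 0.40 ± 0.11 on day 7. Lmna, which encodes lamins A and C, rose by 0.51 ± 0.12 on day 1 and 0.90 ± 0.12 on day 5. The homeodomain gene Dlx5 rose by 0.65 ± 0.14 on day 5. The letters CCCNNGGG, the core of the Ebf binding motif, were searched on both strands in the 300 bases around the start of the gene models of Olfr1264, Olfr1509, Olfr92 and Olfr71 and found in none. They were in 13.7% of all such windows and in 3.1% of the 948 windows of odorant receptor genes. A homeodomain core, TAATTA, was also in none of the 4, and was in 5.3% of all windows and 18.6% of the receptor windows. The models of Olfr1264, Olfr92 and Olfr71 begin at the coding ATG, and whether their windows reach the promoter was not tested.

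Of 16 tested genes of axon sorting and receptor zones, 2 fell on day 1, 8 fell and 1 rose on day 5, and 7 fell on day 7 (medians of −0.36, −0.41 and −0.50). Plxna3, a semaphorin co-receptor, fell on all 3 days, by 1.01 ± 0.11, 1.5 ± 0.11 and 1.31 ± 0.11. Nqo1, an enzyme used as a marker of the dorsal zone of the epithelium, fell by 1.5 ± 0.21 and 1.96 ± 0.21 on days 5 and 7 (adjusted p = 0.00021 and 5.3e-05), and its value from day 1 to day 5 was −1.38 ± 0.21. Cntn4, an adhesion protein, fell by 1.47 ± 0.19 and 1.04 ± 0.19 on days 5 and 7. Epha5, an ephrin receptor, fell by 0.89 ± 0.22, 1.51 ± 0.22 and 1.00 ± 0.22 on days 1, 5 and 7. Lgals1, a galectin, rose by 0.87 ± 0.13 on day 5.

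Genes of immature neurons went the other way in part. Of 17 tested, 1 rose on day 1, 6 rose and 4 fell on day 5, and 8 rose and 2 fell on day 7. Their medians were 0.02, 0.10 and 0.49. Of all tested probe sets 1.8%, 11.8% and 7.01% rose on days 1, 5 and 7, and 0.666%, 9.19% and 6.02% fell. Gap43, a growth cone protein, rose by 0.38 ± 0.09 on day 5 and 0.49 ± 0.09 on day 7 (adjusted p = 0.0078 and 0.0024), with signals of 11997 to 14055 on day 7 against 8576 to 9412 untreated. Cxcr4, a chemokine receptor of young neurons, rose by 1.00 ± 0.13 and 1.06 ± 0.13, Sox11 by 0.50 ± 0.11 and 0.79 ± 0.11, and Stmn1 by 0.53 ± 0.10 on both days. Stmn4 rose by 1.17 ± 0.13 on day 1 and fell by 0.55 ± 0.13 and 0.72 ± 0.13 later. Dcx fell by 0.88 ± 0.19 on day 5 (adjusted p = 0.0045).

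Markers of some other cell types rose on the days the receptors were low, against 11.8% of all tested probe sets on day 5 and 7.01% on day 7. Of 9 tested markers of globose basal cells and progenitors, 8 rose on day 5 and 9 on day 7, and their summed signal was 16540 to 18648 in untreated arrays, 26996 to 29171 on day 5 and 28078 to 32095 on day 7. Of 10 tested macrophage markers, 6 rose on each of these days, with sums of 17901 to 20775 untreated, 36499 to 39335 on day 5 and 27439 to 30934 on day 7. Of 8 tested sustentacular cell markers, 4 rose on day 5 and 3 on day 7, and none of the markers of these 3 types fell. Of 9 granulocyte markers 2 and 1 rose, near the shares of all probe sets. Of 6 tested glial markers 2 and 1 rose, of 6 endothelial markers 1 and 2, of 2 Bowman gland markers 1 and 1, and of 2 bone and cartilage markers 2 and 1. The 3 tested genes listed for ciliated respiratory cells were Foxj1, Tekt1 and Tuba1a. Of these 0 rose, 1 fell on day 5 and 2 fell on day 7. Their sums overlapped, at 47908 to 52464 untreated, 38419 to 53732 on day 5 and 45215 to 53689 on day 7. None of 3 markers each of horizontal basal cells, B lymphocytes and erythrocytes passed on either day. Sox2 is on both the progenitor and the sustentacular list, and Neurod1 on both the progenitor and the immature neuron list. Ltf is on both the Bowman gland and the granulocyte list, so those counts are not independent. None of 9 skeletal muscle markers reached 3 present calls. The part of these cell types in the receptors' changes was not tested.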

How the data were processed

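RNA pools of olfactory epithelium were measured on 15 arrays. The authors deposited scaled signal intensities, each with a call of present, marginal or absent and the detection p-value behind it. The sources used here do not name the array software. Station settings deposited by the authors, which are other than measurements, gave the scan day and chip lot. Arrays with the same hybridize date in those settings were taken as 1 fluidics run. Signals were raised to a floor of 1, log2 transformed, and tested where called present on at least 3 arrays (7508 of 12488 probe sets). All 15 arrays entered 1 linear model of group means, in limma 3.58.1 (R 4.3.3, moderated variances with a trend), with two-sided p-values adjusted by Benjamini-Hochberg over all probe sets, at a threshold of 0.05. The fit was also tested on simulated data. For 3 arrays against 3 an exact permutation test cannot go below p = 0.1, and it was not used for calls.

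The same fit was made after subtracting on each array the mean log2 signal of Omp, Adcy3 and Cnga2 and, for description only, the log2 signal of Olfr71. A fold against a group without a present call sets the brighter group's mean against the dimmer group's. There a dim array counts with its signal or, if higher, with the smallest present signal of that array. The brighter mean was taken as measured. Most sham arrays of Olfr92 and Olfr140 and most OBX day 1 arrays of Olfr92 were not called present, so those bounds are not strict. Named with values were all members, the other single-gene receptors, the landmarks Omp, Adcy3, Cnga2 and Gap43, up to 4 genes of smallest adjusted p per list and comparison, and the 5 genes nearest in course to each member. Car2 and Vmn2r30 were named after their values were seen. Where several probe sets of a gene were tested the brightest was used. The members and lists were chosen with earlier results of these data known. Nothing in the labels ties arrays of the same number to each other, and their deviations from the group means correlated at −0.35 to 0.37, so the numbers were not taken to pair arrays. The labels number the pools as separate samples of a group, and p-values measure the spread between pools.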

Additional observations from a re-analysis of the deposited data

How the results depend on the processing

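No receptor change turned its direction past the threshold under any of the alternatives run. For day 1 against untreated, the number of the 5 receptors that fell (2 in the main setting) was 1 with median centring or a floor of 100, 0 with no filter on detection calls, no variance trend, scan day as a block or the replicate block, and 4 with array weights, within the first scan day or with only the arrays of the groups compared. It was 5 with fluidics run as a random block. Calls over all 7508 tested probe sets moved with the setting too. They were 185 in the main setting, 50 with scan day as a block and 1492 with fluidics run as a random block. On day 5 against sham it was 0 with scan day as a block and on day 7 also 0. From day 1 to day 5 it was 0 with scan day as a block and with only the arrays compared. From day 1 to day 7 it was 0 with scan day as a block. The log2 changes within the second scan day, with 1 array of OBX day 1, are given above. Presence on at least 6 arrays left out Olfr92, the only receptor called from day 1 to day 7, so its change was not tested in that setting. The larger fall on day 5 than on day 1 passed for 1 receptor with array weights and for 4 with fluidics run as a random block.

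On day 1, Olfr1264 missed the threshold with a floor of 100, no filter and no variance trend (−0.84 each, adjusted p = 0.054, 0.065 and 0.062) and with scan day as a block (−0.75, adjusted p = 0.22). Olfr71 missed it with median centring (−0.63), no filter and no variance trend (−0.62 each), scan day as a block (−0.68) and the sham group as control (−0.54). Olfr1509 passed with array weights (−0.63), fluidics run as a random block and within the first scan day (−0.54 each), the sham group (−0.70), both controls (−0.64) and only the arrays compared (−0.59). Olfr1507 passed with array weights (−0.92), fluidics run (−0.84), within the first scan day (−0.79) and with only the arrays compared (−0.86), and Olfr92 with fluidics run (−0.66). On day 5, Olfr71 missed it with median centring (−0.46, adjusted p = 0.059) and with only the arrays compared (−0.48, adjusted p = 0.13). With scan day as a block the day 5 values were −1.44 for Olfr92, −2.02 for Olfr1507, −1.27 for Olfr1509, −1.22 for Olfr1264 and −0.68 for Olfr71, none past the threshold. On day 7 that block gave −1.72 for Olfr92, −0.58 for Olfr1264 and −0.73 for Olfr71, none past it. Olfr71 also missed it against sham (−0.46), and Olfr1507 passed with array weights (−1.03), fluidics run and only the arrays compared (−0.93 each), and both controls (−0.94). Causes were not tested.

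With the replicate number as a block (replicate block), Olfr1264 (−0.84, adjusted p = 0.057) and Olfr71 (−0.62, adjusted p = 0.078) missed the threshold on day 1 and Olfr71 on day 5 (−0.48, adjusted p = 0.051). The block changed no other call of the 5 receptors on these days against control.

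Leaving out 1 array at a time, the first OBX day 5 array in every comparison, gave 0 to 3 receptors that fell on day 1, 4 to 5 on day 5, 1 to 3 on day 7 and 0 to 3 from day 1 to day 5. The larger fall on day 5 passed for 0 to 3, and 0 to 1 fell relative to the mature neuron genes on day 5. The ranges on day 1 were −0.94 to −0.74 for Olfr1264, −0.70 to −0.47 for Olfr71 and −0.68 to −0.54 for Olfr1509. They were −0.63 to −0.38 for Olfr71 on day 5, and −0.97 to −0.77 for Olfr1264 and −0.60 to −0.44 for Olfr71 on day 7.

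The number of all tested probe sets called ranged, over settings that keep all arrays or a whole scan day, from 50 to 1492 on day 1 (185 in the main setting), from 65 to 3847 on day 5 (1578) and from 13 to 3083 on day 7 (978), lowest with scan day as a block and highest with fluidics run as a random block. The runs largely follow the groups (the OBX day 7 arrays are a run of their own), so that fit cannot separate them. From day 5 to day 7 it reached 979. Olfr92 lay near the detection limit, which limits what its signals of 110.1 to 464 after bulbectomy can show.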
